A study of Mus musculus with 22 samples.

Results

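The genes described here are Ndn, Magel2, Mkrn3, Peg12 and A230006K03Rik, 5 of the 41456 gene IDs in a count table of mouse hypothalamus RNA. They were taken by symbol, each symbol stood on 1 ID, and all 5 passed the low-count filter. The 22 libraries of polyadenylated RNA were labelled hypothalamus of C57BL/6J mice. The PWScrm+/p− mutant mice carry a paternally inherited loss of Snord116, a cluster of small nucleolar RNA genes, and the PWScrm+/p+ control mice do not. The groups were mutant (n = 3) and control (n = 3) at ZT0, the start of the light period, mutant (n = 4) and control (n = 4) at ZT6, and mutant (n = 4) and control (n = 4) at the same ZT6 but kept awake for the 6 h before it (sleep deprivation, SD). The labels give neither age nor sex, and the loss is inherited, so it is not limited to the hypothalamus. Titles carry separate numbers, but nothing states that each is a separate mouse, so p-values measure the spread between these libraries.

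Ndn, Magel2, Mkrn3 and Peg12 are protein genes without introns in the Prader-Willi region, and are transcribed from the copy inherited from the father while the maternal copy is silenced by imprinting. Ndn encodes necdin, a MAGE-domain protein abundant in post-mitotic neurons, and Magel2 encodes a larger MAGE protein that works with an E3 ubiquitin ligase in endosomal sorting and is strongly expressed in the hypothalamus. Mkrn3 encodes a zinc-finger ubiquitin ligase whose loss in humans brings early puberty, and Peg12, also called Frat3, is a mouse gene of the Frat family, proteins that bind the kinase GSK3. The genes lie outside the deleted Snord116 cluster.

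In GRCm38 with GENCODE M21 annotation, Ndn lies on chromosome 7 at 62346569 to 62350262 on the plus strand (ENSMUSG00000033585). Magel2 follows on the same strand at 62377010 to 62381640 (ENSMUSG00000056972). On the minus strand come Mkrn3 at 62417593 to 62420139 (ENSMUSG00000070527) and Peg12 at 62461871 to 62464510 (ENSMUSG00000070526). These 4 genes thus sit within a short cluster, with gaps of 26.75, 35.95 and 41.73 kb between neighbours. The long intergenic noncoding RNA A230006K03Rik is a 9-exon-block gene on the minus strand at 61127996 to 61311721 (ENSMUSG00000068151), which lies 1034.85 kb from Ndn and 1152.24 kb from Snhg14, the host transcript of Snord116.

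**Figure D1:**
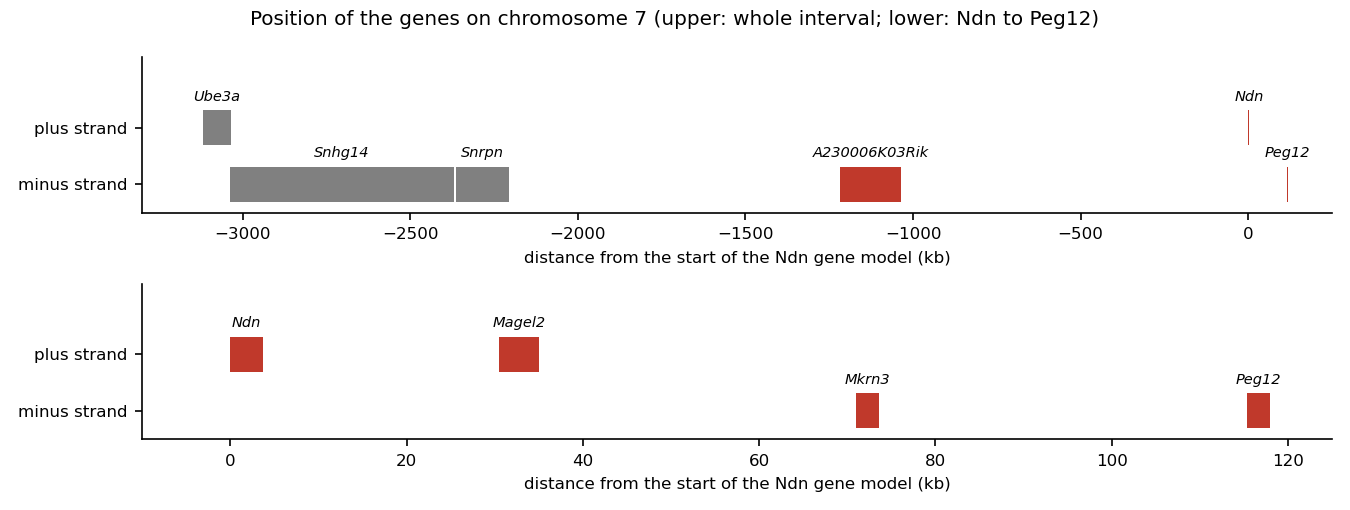
Gene models on chromosome 7 by distance in kb from the start of Ndn, with genes on the plus strand above those on the minus strand; the genes described are red and other genes of the region grey. Ndn, Magel2, Mkrn3 and Peg12 form a cluster, whereas A230006K03Rik lies 1034.85 kb away from Ndn, between it and Snrpn.

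The noncoding RNA Gm32061 overlaps Ndn and Magel2 on the opposite strand and Mkrn3 on the same strand, and has no line in the count table. The overlap is between whole gene spans, introns included, and no 31-base stretch of Ndn or Mkrn3 was found in another gene's transcripts. The strand setting of the counting is not given in the sources used here. Unspliced reads from Gm32061 thus cannot be told apart from those of the 3 genes. Of the 31-base words of each gene, 0% were found in another gene for Ndn and Mkrn3 and 0.264% for Magel2. The share was 2.26% for Peg12 (shared with Frat1 among others) and 11.8% for A230006K03Rik. By shared words alone, which leave out depth and the overlap with Gm32061, the counts of A230006K03Rik are the least certain of the 5.

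The 250 bases upstream of the RefSeq start of each protein gene (GRCm38.p6) are shown because, among these 4 neighbours, Ndn and Magel2 were lower and Peg12 higher in some of the libraries described below. Capitals mark motifs found on either strand: GCATGCGC (NRF1), GGGCGG (GC box) and CCGGAAGT (ETS). TGACGTCA (CRE) was also searched, and the motifs were chosen with the sequences in view.
Ndn, chr7:62348027-62348276, plus strand: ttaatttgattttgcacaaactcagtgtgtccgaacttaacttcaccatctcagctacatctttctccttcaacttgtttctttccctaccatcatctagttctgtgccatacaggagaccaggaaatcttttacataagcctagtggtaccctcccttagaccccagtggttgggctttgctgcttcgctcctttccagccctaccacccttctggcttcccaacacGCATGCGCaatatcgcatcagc
Magel2, chr7:62376729-62376978, plus strand: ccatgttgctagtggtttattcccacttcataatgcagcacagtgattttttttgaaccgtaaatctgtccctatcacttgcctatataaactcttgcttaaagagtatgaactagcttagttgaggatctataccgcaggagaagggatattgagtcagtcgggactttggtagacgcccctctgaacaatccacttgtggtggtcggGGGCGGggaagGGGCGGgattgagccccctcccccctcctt
Mkrn3, chr7:62420154-62420403, minus strand: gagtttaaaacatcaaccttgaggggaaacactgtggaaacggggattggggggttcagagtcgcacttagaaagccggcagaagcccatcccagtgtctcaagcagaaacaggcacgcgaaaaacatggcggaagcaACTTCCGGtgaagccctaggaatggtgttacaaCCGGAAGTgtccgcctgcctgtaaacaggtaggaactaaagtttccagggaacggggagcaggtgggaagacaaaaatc
Peg12, chr7:62464511-62464760, minus strand: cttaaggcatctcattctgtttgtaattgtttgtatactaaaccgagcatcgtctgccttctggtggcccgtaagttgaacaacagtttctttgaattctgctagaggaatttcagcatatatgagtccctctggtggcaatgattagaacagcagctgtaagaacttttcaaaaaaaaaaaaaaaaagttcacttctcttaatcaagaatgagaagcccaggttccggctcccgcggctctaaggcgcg
Each of the 3 windows that hold a motif holds a different one. The Ndn window, which lies inside the longer GENCODE model of the gene, holds 1 NRF1 motif, found in 2.26% of the 32851 RefSeq windows of this length. The Magel2 window holds 2 GC boxes, and 32.7% of windows hold at least 1. The Mkrn3 window holds 2 ETS motifs in opposite orientations, and 2.88% of windows hold at least 1. All these shares count either strand, and the share of windows with 2 copies was not computed. The NRF1, GC box and ETS letters are not in the Peg12 window, and CRE (1.55% of windows) is in none of the 4. CpG dinucleotides numbered 5 in the Ndn, 7 in the Magel2, 10 in the Mkrn3 and 8 in the Peg12 window, with a median of 6 over all windows.

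The 22 libraries were not alike in tissue content, which bears on every result. Library totals were 14609454 to 46965594 counts in 17 libraries, 3120328 to 32164426 in 4 others, and 7348 counts in mutant ZT6 replicate 2. Those 4 libraries are all 3 of the mutant group at ZT0, and replicate 3 of the mutant group at ZT6. The 10 neuron markers summed to 4.60 to 26.2 CPM (a gene's counts divided by the library's total, times 1e+06) in the 4, against 2665 to 4350 CPM in the 17. The 10 hypothalamic markers summed to 3.17 to 5.68 against 952 to 5543 CPM, with Pomc at 0 in all 4. The 6 oligodendrocyte markers summed to 18.6 to 29.0 against 3282 to 7754 CPM, and the 6 astrocyte markers to 65.3 to 632 against 3052 to 4082 CPM. The 8 fibroblast and meningeal markers went the other way, at 14368 to 35499 against 46.3 to 379 CPM. The 4 libraries thus go against the hypothalamus label and are called few-neural below, and the 17 are called hypothalamic. The 17 Snord116 genes had 0 counts in all 11 mutant libraries and 1 to 1561 counts in 8 of the 11 control libraries. Control ZT0 replicate 3, control ZT6 replicate 4 and control SD replicate 4 also had 0 counts. A count of 0 thus does not mark a single library as mutant.

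Ndn had 142, 72.6 and 90.1 CPM in mutant ZT0 replicates 1 to 3 and 86.9 CPM in mutant ZT6 replicate 3, against 430 to 1241 CPM (median 795) in the 17 hypothalamic libraries. The ranges did not overlap, and the median of the 4 was 0.111 of that of the 17. Necdin RNA was still a readily counted transcript in the few-neural libraries, with 281 to 2334 counts in each.

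Magel2 had 0, 7 and 0 counts in mutant ZT0 replicates 1 to 3 and 9 in mutant ZT6 replicate 3, which is at most 0.506 CPM, against 50.2 to 126 CPM (median 70.2) in the hypothalamic libraries. In mutant ZT0 replicates 1 and 3, a count of 0 allows up to 3 counts, or 0.194 and 0.961 CPM, and such limits cover counting error only. Over the 4 few-neural libraries Ndn summed to 6359 counts and Magel2 to 16, a ratio of 397. Within the 17, the ratio of Ndn to Magel2 counts ran from 5.72 to 21.99 with a median of 10.7. Both genes code MAGE proteins and lie 26.75 kb apart, yet their ratio in the few-neural libraries lay outside its range in the hypothalamic ones.

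Peg12 was higher in the few-neural libraries, at 7.17, 2.52 and 5.13 CPM in mutant ZT0 replicates 1 to 3 and 3.77 CPM in mutant ZT6 replicate 3, against 0 to 0.821 CPM (median 0.335) in the 17. The ranges did not overlap, and the ratio of the medians was 13.3. Mkrn3, its neighbour on the same strand, had 0.0646, 0.839 and 0.320 CPM in mutant ZT0 replicates 1 to 3 and 0.619 CPM in mutant ZT6 replicate 3, against 0.368 to 2.19 CPM (median 1.17). The Mkrn3 ranges overlapped. Summed over the few-neural libraries, Peg12 had 275 counts and Mkrn3 40, a ratio of 6.88. Single libraries ranged from 3 to 111, with 1 Mkrn3 count in each of mutant ZT0 replicates 1 and 3, against 0 to 0.75 in the hypothalamic libraries. Peg12 thus had more counts than Mkrn3 in all 4 few-neural libraries and fewer in all 17 others. The noncoding A230006K03Rik had 2.20, 2.80 and 2.24 CPM at ZT0 and 3.60 CPM at ZT6 in the few-neural libraries, against 4.83 to 17.5 CPM (median 8.50), without overlap and with a ratio of medians of 0.296.

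Among 22325 genes with a mean of at least 0.1 CPM, 27.3% lay wholly lower in the few-neural libraries and 11.3% wholly higher. Of the 5 genes, 3 lay wholly lower and 1, Peg12, wholly higher. These are descriptions with no test, since the libraries were separated by their markers and not by the study. In bulk RNA, fewer cells of a type and less RNA per cell cannot be told apart.

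**Figure D2:**
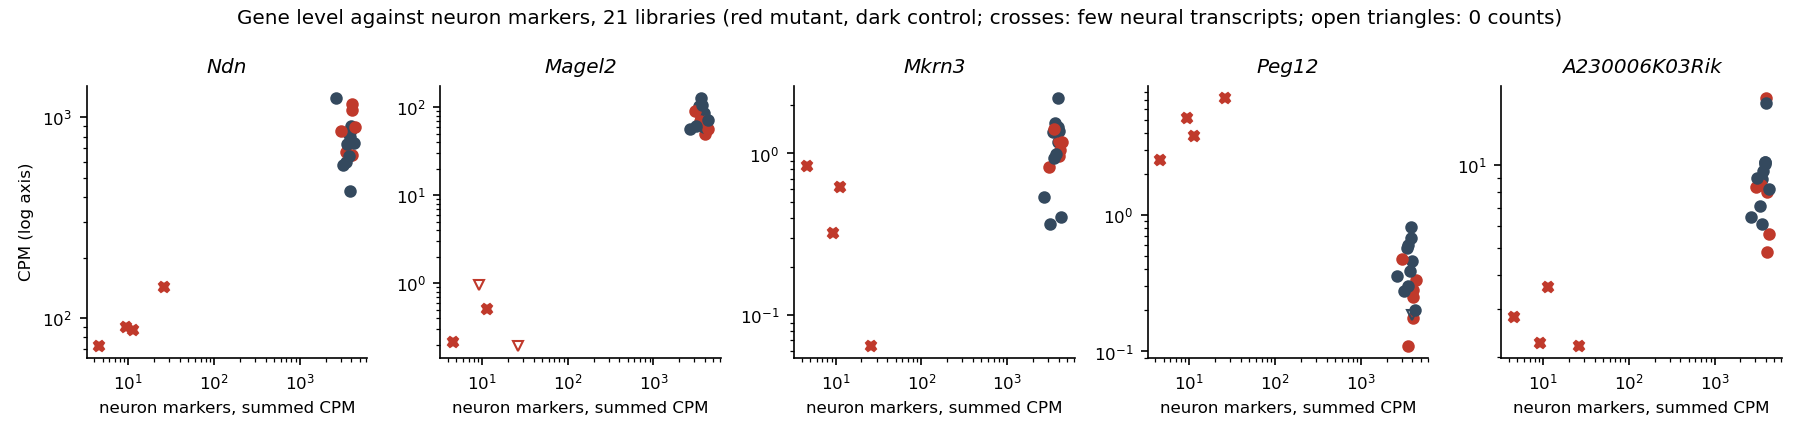
CPM of each gene (vertical, log axis) against the summed CPM of 10 neuron markers (horizontal, log axis) in 21 libraries, with mutant libraries red and control libraries dark; crosses are the 4 few-neural libraries, circles the 17 hypothalamic ones and open triangles 0 counts, drawn at the value of 3 counts. The crosses lie below the circles for Ndn, Magel2 and A230006K03Rik, above them for Peg12, and partly in the same range for Mkrn3.

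Mutant ZT6 replicate 2 had 10 Ndn counts and 0 counts of each of the other 4 genes. At its depth a count of 0 allows 408 CPM, so nothing can be said of Magel2, Mkrn3, Peg12 or A230006K03Rik there.

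Levels were compared between genes per kb of exon. In the 17 hypothalamic libraries the medians were 215 CPM per kb for Ndn, 15.2 for Magel2, 5.87 for A230006K03Rik, 0.460 for Mkrn3 and 0.127 for Peg12. Ndn stood above Magel2, and Mkrn3 above Peg12, in 17 of 17 libraries. Magel2 stood above A230006K03Rik in 16 of 17, the exception being mutant ZT6 replicate 4 at 10.8 against 12.1 CPM per kb. In the few-neural libraries Ndn was also above the other 4 genes, but Magel2 was below A230006K03Rik and Peg12 in 4 of 4. The order of Magel2 and Mkrn3 could not be told in mutant ZT0 replicates 1 and 3, with 0 counts of Magel2 and 1 of Mkrn3 in each, and Magel2 was the lower in the other 2. Peg12 and A230006K03Rik had no fixed order there, each being the higher in 2 of 4.

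**Figure D3:**
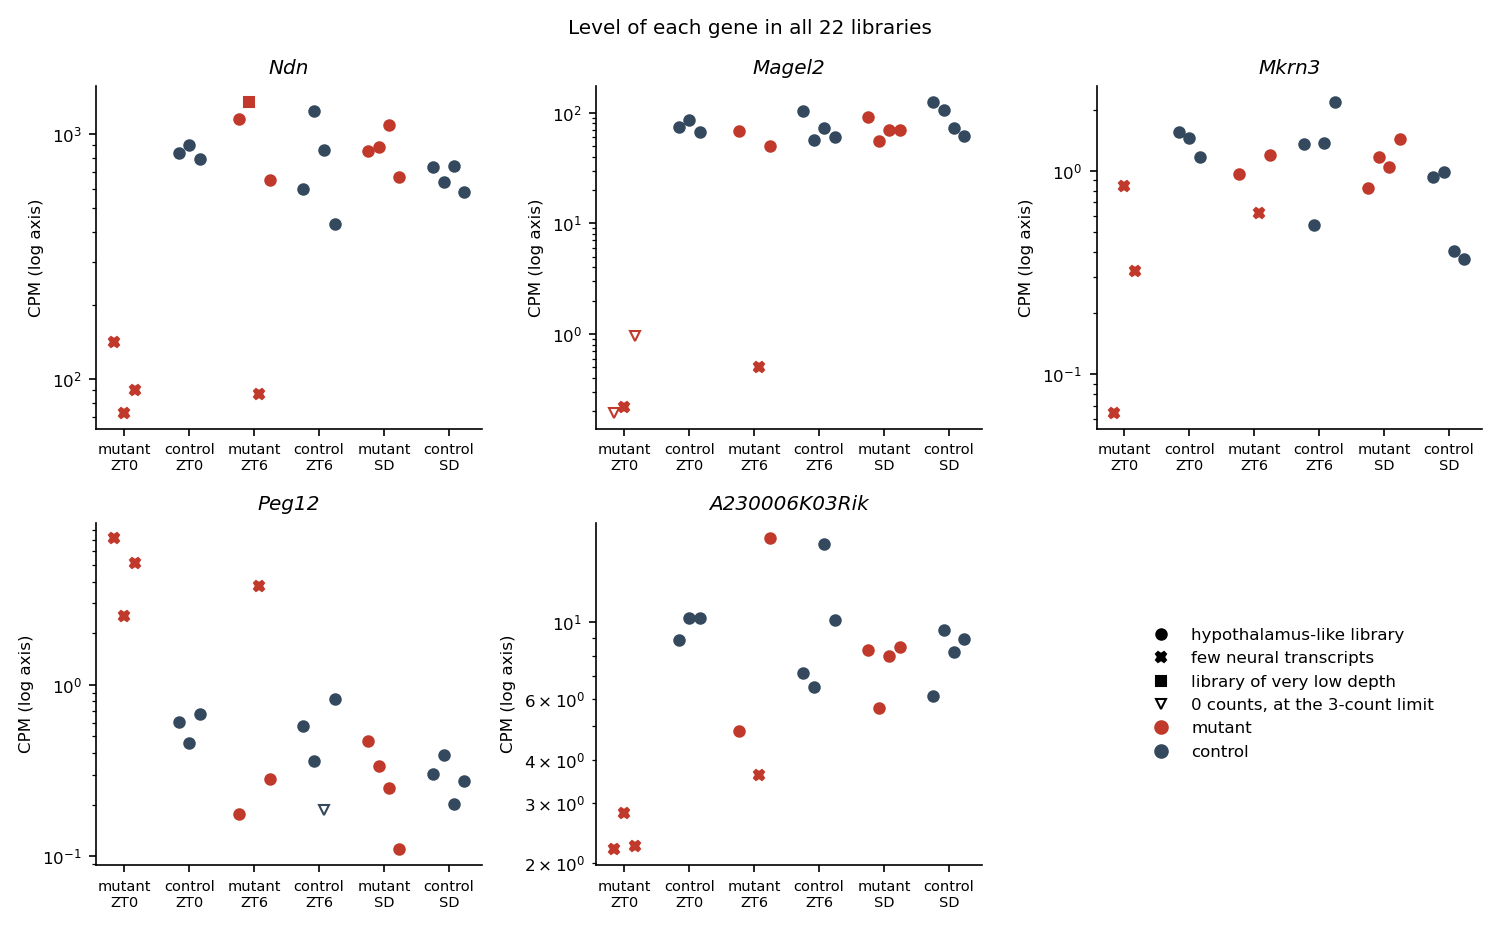
CPM of each gene in every library (log axis), by group with mutant left of control; circles are hypothalamic libraries, crosses few-neural libraries, the square the library of 7348 counts (drawn for Ndn only) and open triangles 0 counts, drawn at the value of 3 counts. All 3 mutant ZT0 libraries are crosses, except that replicates 1 and 3 are open triangles for Magel2. The mutant circles overlap the control circles for each gene at ZT6 and after SD, except for Peg12 at ZT6. There the mutant circles lie below the control circles, and control replicate 3 is an open triangle.

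At ZT0, Magel2, Ndn and A230006K03Rik were lower and Peg12 was higher in mutant than in control libraries. All 3 mutant libraries are few-neural, so genotype and tissue content cannot be told apart. Ndn had 142, 72.6 and 90.1 CPM in mutant libraries against 839, 908 and 795 CPM in control libraries, and the groups did not overlap. In the fit of edgeR's quasi-likelihood test over all 22 libraries, its log2 fold change was −2.54 ± 0.60 (SE; adjusted p = 0.00186). Magel2 had 0, 0.218 and 0 CPM against 75.0, 85.1 and 67.3 CPM, with a fold change of −8.71 ± 1.20 (log2, edgeR adjusted p = 0.000109). Of the 6 libraries, the 3 mutant ones held 7 Magel2 counts in all and the 3 control ones 6742.

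A230006K03Rik averaged 2.41 ± 0.335 CPM in mutant and 9.82 ± 0.813 CPM in control libraries at ZT0 (SD, n = 3 each), a log2 fold change of −1.50 ± 0.47 (edgeR adjusted p = 0.0125). Peg12 had 7.17, 2.52 and 5.13 CPM in mutant against 0.606, 0.460 and 0.675 CPM in control libraries. It was the one of the 5 that rose, by 3.58 ± 1.05 on the log2 scale (edgeR adjusted p = 0.00820). Mkrn3 had 0.0646, 0.839 and 0.320 CPM against 1.55, 1.46 and 1.17 CPM, and did not pass at −1.13 ± 0.66 (edgeR adjusted p = 0.158). So 4 of the 5 genes passed, where 50.1% of the 20763 genes tested did (20.9% higher and 29.2% lower), and the median log2 fold change was −1.50 over the 5 and −0.22 over all genes. Without mutant ZT0 replicate 2, which holds 27 of the group's 29 Mkrn3 counts and all of its Magel2 counts, Mkrn3 also passed at −2.87 (edgeR adjusted p = 0.00929). Magel2 was then at 0 in every remaining mutant ZT0 library, so its fitted fold change has no meaning as a size.

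Counts for the other lists in the same comparison are to be read against the 20.9% of all genes called higher and the 29.2% called lower, and lists this small show nothing particular to them. Other genes of the region had a wide spread. Of 14 measured, 3 were higher and 9 lower by the edgeR test, with a median of −2.42. The GABA-A receptor subunit genes Gabra5 and Gabrg3 were far lower, with Gabra5 at −11.81 ± 1.88 and Gabrg3 at −8.48 ± 1.20 on the log2 scale (edgeR adjusted p = 0.000150 and 0.000109). The aminophospholipid transporter gene Atp10a rose by 3.04 ± 0.72 and the splicing-protein gene Snrpn fell by 4.51 ± 0.87 on the log2 scale. Ube3a, the ubiquitin ligase gene of Angelman syndrome, was called at 11.19 ± 4.42 (edgeR adjusted p = 0.0432), but it overlaps its antisense transcript Snhg14, so its counts are uncertain.

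Of 6 other MAGE family genes tested, 1 was higher and 3 lower (median −0.83), with Magee2 at −7.02 ± 1.34, Magee1 at −2.70 ± 0.55, Mageh1 at −1.02 ± 0.30 and Maged2 at 1.67 ± 0.33. Maged1 (−0.63 ± 0.34) and Nsmce3 (0.09 ± 0.26) did not pass. Of 11 genes for the partners of Magel2 (the retromer, the WASH complex, Trim27 and Usp7), 3 were higher and none lower: Washc5 at 1.57 ± 0.64, Vps26a at 1.51 ± 0.49 and Washc3 at 1.46 ± 0.41. Of 12 genes for partners of necdin, 5 were higher and 1 lower. The cell-cycle factor E2f1 was at 4.45 ± 0.86, the oxygen-sensing factor Hif1a at 2.94 ± 0.87 and Trp53, which encodes p53, at 2.76 ± 0.56, and the homeobox gene Dlx5 at −2.76 ± 1.06.

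Among 7 makorin and pubertal neuroendocrine genes, 5 were lower and none higher (median −2.62). Tac2, which encodes neurokinin B, was at −12.18 ± 1.75, Pdyn, which encodes the dynorphin precursor, at −8.42 ± 1.44, and the receptor genes Tacr3 and Kiss1r at −8.13 ± 1.38 and −2.62 ± 0.63. Among 12 genes of the Frat family and Wnt signalling, 3 were higher and 2 lower (median 0.15). Frat1, a relative of Peg12, fell by 3.88 ± 0.74 on the log2 scale, while Frat2 was at −0.35 ± 0.32 and did not pass. The Wnt target Axin2 was at −3.91 ± 0.66 and the Wnt co-receptor gene Lrp5 at 3.63 ± 0.71. In the same comparison all 10 neuron, all 10 hypothalamic, all 6 oligodendrocyte and 5 of 6 astrocyte markers were lower. All 8 fibroblast and meningeal markers were higher, and none of 8 pituitary markers passed; the part of these markers' cells in the lists was not tested.

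Between ZT6 and ZT0 in mutant mice, the same few-neural libraries form the whole ZT0 group. At ZT6 the 2 hypothalamic libraries, replicates 1 and 4, had 1157 and 649 CPM of Ndn and 69.0 and 50.2 CPM of Magel2, and few-neural replicate 3 had 86.9 and 0.506 CPM. ZT6 replicate 3 thus fell within the ZT0 range for Ndn, 72.6 to 142 CPM. In the 22-library edgeR fit Magel2 (7.82 ± 1.17, adjusted p = 0.000288), Ndn (2.15 ± 0.57, adjusted p = 0.00839) and A230006K03Rik (1.46 ± 0.47, adjusted p = 0.0269) were higher at ZT6. So 3 of 5 passed, where 23.8% of all genes did (21.1% higher and 2.76% lower). Peg12 at −1.94 ± 0.98 and Mkrn3 at 0.74 ± 0.65 did not pass (edgeR adjusted p = 0.157 and 0.430). The call for A230006K03Rik was lost without mutant ZT0 replicate 1 (1.45, adjusted p = 0.0737) or 3 (1.36, adjusted p = 0.0769), or without mutant ZT6 replicate 4 (0.51, adjusted p = 0.436), all by edgeR. That for Ndn was lost without mutant ZT6 replicate 1 (1.58, edgeR adjusted p = 0.0507). Without few-neural ZT6 replicate 3, Peg12 was called lower at ZT6 (−4.80, edgeR adjusted p = 0.000338), and without mutant ZT0 replicate 2, Mkrn3 was called higher (2.48, edgeR adjusted p = 0.0410).

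At ZT6, no difference between mutant and control libraries passed for any of the 5 genes. In the hypothalamic libraries Ndn had 1157 and 649 CPM in mutants against 598, 1241, 864 and 430 CPM in controls, and both mutant values lay inside the control range. Magel2 had 69.0 and 50.2 CPM against 104.5, 56.4, 72.5 and 59.8 CPM, and the groups overlapped. A230006K03Rik had 4.83 and 17.5 CPM against 7.11, 6.48, 16.9 and 10.1 CPM, so the 2 mutant libraries were the lowest and the highest of the 6. Mkrn3 had 0.966 and 1.20 CPM against 1.36, 0.540, 1.37 and 2.19 CPM, inside the control range. Peg12 had 0.176 and 0.282 CPM against 0.575, 0.360, 0 and 0.821 CPM, also inside it.

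In the edgeR fit of the 17 hypothalamic libraries (21346 genes tested), the mutant minus control log2 difference at ZT6 was 0.21 for Ndn (95% interval −0.54 to 0.96) and −0.24 for Magel2 (−0.79 to 0.31). It was −0.25 for Mkrn3 (−1.37 to 0.87), −0.89 for Peg12 (−2.89 to 1.11) and 0.24 for A230006K03Rik (−0.66 to 1.14). No gene at all passed (0% called), with 566 genes at an unadjusted p under 0.05 and 15 calls by DESeq2. The 22-library fit also called 0, with 2720 such genes and 695 calls by DESeq2. For Peg12 the direction depended on few-neural replicate 3, at 3.77 CPM: the fold change was 1.98 ± 0.91 in the 22-library fit (edgeR adjusted p = 0.353) and −0.88 ± 0.81 when that library alone was left out (adjusted p = 1). Leaving it out also moved Ndn from −0.34 ± 0.49 to 0.04 ± 0.38 and A230006K03Rik from −0.10 ± 0.42 to 0.21 ± 0.41. None of these values passed the edgeR test.

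After SD all 8 libraries are hypothalamic, but pituitary content differed between the genotypes. The pituitary markers described below summed to 23298 and 1106 CPM in mutant replicates 1 and 4, and to at most 29.6 CPM in the control libraries. Ndn had 854, 891, 1090 and 672 CPM in mutant against 732, 638, 740 and 579 CPM in control libraries; 3 mutant values lay above every control value and the fourth inside the control range. Its log2 fold change in the 17-library fit was 0.32 ± 0.29 (95% interval −0.30 to 0.94, edgeR adjusted p = 0.999). Magel2 had 90.7, 55.9, 70.2 and 69.7 CPM against 126, 106, 72.0 and 61.3 CPM, with overlap, and a fold change of −0.41 ± 0.21 (log2; −0.86 to 0.04, edgeR adjusted p = 0.999). So Ndn and Magel2 leaned in opposite directions, neither past the test. The sign for Magel2 was not the same within each of the runs of index numbers described below.

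Mkrn3 after SD had 0.828, 1.17, 1.05 and 1.43 CPM in mutant against 0.934, 0.987, 0.405 and 0.368 CPM in control libraries, 25 to 35 counts against 8 to 34. Its log2 fold change was 0.68 (95% interval −0.23 to 1.60). Peg12, with 2 to 16 counts against 5 to 13, was at −0.06 (−1.65 to 1.52), and A230006K03Rik at −0.18 (−0.92 to 0.56). The edgeR test called 0% of genes in the 17-library fit (1 call by DESeq2, 631 genes with p under 0.05 before adjustment) and in the 22-library fit (13 calls and 169 genes). The intervals were narrowest for the well-counted Magel2 and Ndn and widest for Peg12.

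**Figure D4:**
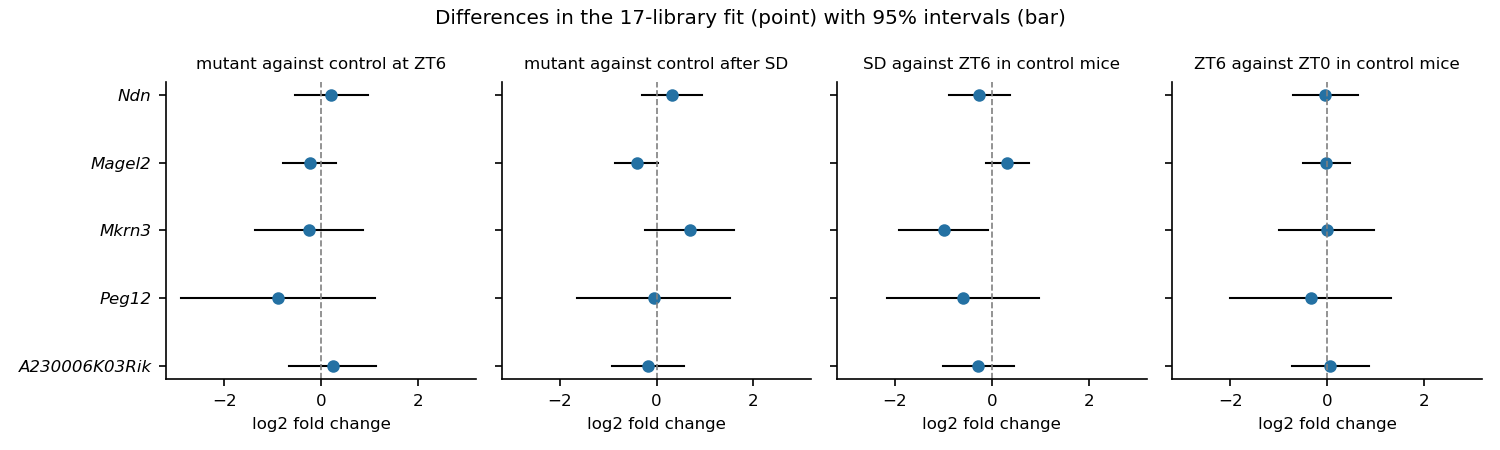
Log2 fold changes of the 5 genes in the 17-library edgeR fit for 4 comparisons, with points for estimates and bars for 95% intervals; positive values are higher in the first-named condition. The bars cross 0 in each panel except for Mkrn3 in SD against ZT6 of control mice (−1.91 to −0.07), which does not pass after adjustment.

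Sleep deprivation was compared with undisturbed ZT6 in each genotype. In control libraries Mkrn3 had 0.934, 0.987, 0.405 and 0.368 CPM after SD against 1.36, 0.540, 1.37 and 2.19 CPM at ZT6, with overlap. Its log2 fold change was −0.99 ± 0.43 in the 17-library fit (unadjusted p = 0.0363, edgeR adjusted p = 0.772). Magel2 had 126, 106, 72.0 and 61.3 CPM after SD against 104.5, 56.4, 72.5 and 59.8 CPM, a log2 difference of 0.32 (95% interval −0.13 to 0.77). Ndn was at −0.25 (−0.87 to 0.37), Peg12 at −0.59 (−2.17 to 0.98) and A230006K03Rik at −0.27 (−1.02 to 0.47). No gene passed the edgeR test (0% called). The genes with an unadjusted p under 0.05 numbered 1318 in the 17 libraries and 700 in the 22, and DESeq2 called 13 and 18.

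In mutant libraries Ndn had 854, 891, 1090 and 672 CPM after SD against 1157 and 649 CPM in the hypothalamic ZT6 libraries, and the values were interleaved. The 17-library log2 differences were −0.15 for Ndn (95% interval −0.90 to 0.61), 0.15 for Magel2 (−0.40 to 0.70), −0.06 for Mkrn3 (−1.16 to 1.05), 0.24 for Peg12 (−1.72 to 2.19) and −0.69 for A230006K03Rik (−1.58 to 0.19). In the 22-library fit, in which 0.833% of genes were called (0.00482% higher and 0.828% lower), none of the 5 passed. Peg12 came nearest there at −2.58 ± 0.93 (edgeR adjusted p = 0.198), and passed only without mutant ZT6 replicate 1 (−3.12, edgeR adjusted p = 0.0424). The ZT6 group of that fit includes few-neural replicate 3, and with that library alone left out Peg12 was at 0.28 ± 0.80 (edgeR adjusted p = 1).

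The response to SD was also compared between the genotypes directly. In the 17-library fit the mutant response minus the control response was 0.11 for Ndn (95% interval −0.87 to 1.09), −0.17 for Magel2 (−0.88 to 0.54), 0.93 for Mkrn3 (−0.52 to 2.39), 0.83 for Peg12 (−1.70 to 3.36) and −0.42 for A230006K03Rik (−1.58 to 0.74), with none past the edgeR test. Nor did the mean genotype difference over ZT6 and SD pass for any of them, with Magel2 at −0.33 (−0.68 to 0.03) and Ndn at 0.26 (−0.22 to 0.75).

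Time of day within the light period was compared in control mice, whose 7 libraries are all hypothalamic. Ndn averaged 783 ± 354 CPM at ZT6 (SD, n = 4) and 847 ± 56.8 CPM at ZT0 (SD, n = 3), with a 17-library log2 difference of −0.03 (95% interval −0.70 to 0.64). Magel2 averaged 73.3 ± 21.9 and 75.8 ± 8.96 CPM in the same groups, a difference of −0.02 (−0.50 to 0.47). Mkrn3 was at −0.01 (−0.98 to 0.96), Peg12 at −0.33 (−1.995 to 1.329) and A230006K03Rik at 0.07 (−0.73 to 0.87). For all 5 genes the ZT0 values lay inside the ZT6 range, and no gene passed edgeR's test (0% called). The genes with an unadjusted p under 0.05 numbered 694 in the 17 libraries and 244 in the 22, and DESeq2 called 24 and 33.

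Within the 17 hypothalamic libraries the levels also differed by the index number in the sample title, which falls into 3 runs (1 to 4, 5 to 18 and 43 to 46). What these runs stand for is not given in the labels. Magel2 had 90.7 to 126 CPM in the 4 libraries of the first run, above all 9 of the second (55.9 to 85.1 CPM) and all 4 of the third (50.2 to 69.7 CPM). Ndn had a different order, with 598 to 854 CPM in the first, 740 to 1241 CPM in the second and 430 to 672 CPM in the third. The first run holds no ZT0 library and holds 3 control libraries and 1 mutant library.

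**Figure D5:**
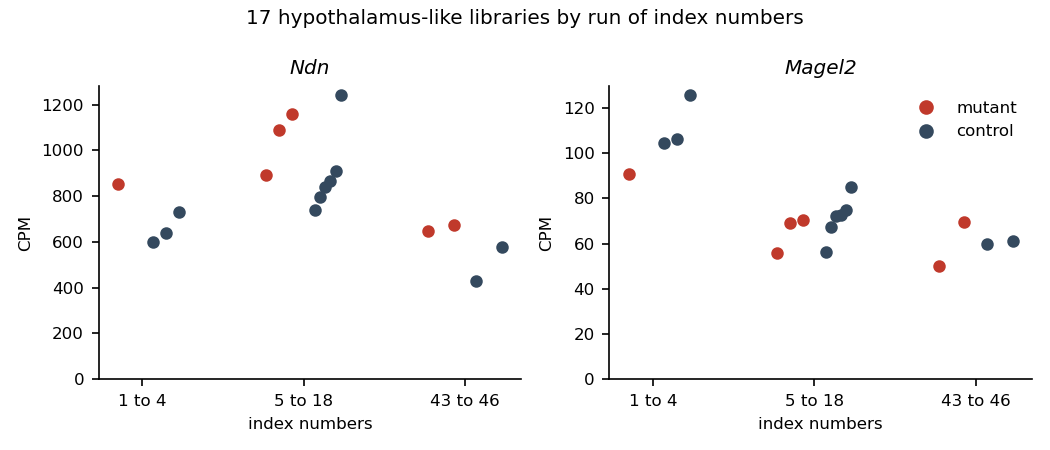
CPM of Ndn and Magel2 in the 17 hypothalamic libraries by run of index numbers in the sample titles, with mutant libraries (red) left of control libraries (dark). Magel2 is highest in index numbers 1 to 4, and Ndn in index numbers 5 to 18.

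Within runs, the mutant over control ratio of mean Ndn after SD was 0.32, 0.42 and 0.21 on the log2 scale in the first, the second and the third run, from 1 or 2 libraries a group. At ZT6 it was 0.14 in the second and 0.59 in the third run. Mutant Ndn means were thus higher in all 5 of these small comparisons. With the runs as a covariate in the 17-library fit, the mean genotype difference over ZT6 and SD was 0.23 ± 0.16 for Ndn (edgeR adjusted p = 0.642). For Magel2 the same ratio after SD was −0.36, −0.19 and 0.19, and at ZT6 it was 0.10 in the second and −0.25 in the third run. The Magel2 sign was thus not the same in each run. The SD over ZT6 ratio of Mkrn3 in controls was −0.50, −1.24 and −2.57, lower after SD in each run, on 8 to 64 counts a library.

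Other tissue content varied as well. The 8 pituitary markers summed to 23298 CPM in mutant SD replicate 1, 1106 CPM in mutant SD replicate 4, 696 CPM in control ZT6 replicate 1, and at most 29.6 CPM in the other 14 hypothalamic libraries. The Ndn and Magel2 levels of these 3 libraries (854, 672 and 598 CPM; 90.7, 69.7 and 104.5 CPM) lay inside the range of the rest for both genes. The part of pituitary tissue in the levels was not tested.

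Variation among the 17 libraries was moderate for the well-counted genes. The SD of log2 CPM was 0.31 for Magel2, 0.40 for Ndn, 0.49 for A230006K03Rik, 0.60 for Mkrn3 and 0.86 for Peg12. Of 16735 genes with a symbol and a mean of at least 1 CPM, 33.2% had a smaller SD than Magel2 and 54.2% than Ndn. The shares were 68.9% for A230006K03Rik, 80.6% for Mkrn3 and 91.1% for Peg12. Peg12 itself averaged 0.370 CPM, below that limit, so it was ranked against better-counted genes. Mkrn3 and Peg12 rest on few counts, 8 to 64 and 0 to 27 a library, so counting error adds to their spread.

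No strong correlation was seen between pairs of the 5 genes across the 17 libraries. Pearson correlations of log2 CPM ran from −0.35 (Magel2 with A230006K03Rik) to 0.22 (Mkrn3 with A230006K03Rik). Spearman correlations ran from −0.29 (Ndn with A230006K03Rik) to 0.37 (Mkrn3 with A230006K03Rik). They are descriptions over libraries that share index runs, and the few counts of Mkrn3 and Peg12 limit what they can show. The genes most like Ndn were Rnf225 (r = 0.87), Zfp101 (r = 0.87) and Snord16a (r = 0.87), and among those most like Magel2 were A230005M16Rik (r = 0.91) and Faah (r = 0.89). After centring on the index runs, these were 0.75, 0.73 and 0.68 for Ndn and 0.67 and 0.75 for Magel2. Mkrn3 was most like Foxr2 (r = 0.84), Txlnb (r = 0.82) and Ick (r = 0.81), and Peg12 most like Fam220a (r = 0.78), Sav1 (r = 0.75) and Icam1 (r = 0.74). Each of these was picked as among the highest over all genes, which by itself favours a large r.

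In the 17-library fit no gene of the other lists passed in any of the 7 comparisons that could be made, which leave out those with mutant ZT0. At ZT6 the median log2 difference, mutant minus control, was 0.11 over 14 other genes of the region, 0.13 over 7 other MAGE genes, 0.20 over 11 Magel2 partners, 0.11 over 12 necdin partners, 0.14 over 7 makorin and pubertal genes and 0.14 over 12 Frat and Wnt genes, against −0.06 over all genes. After SD the same medians were 0.03, −0.15, 0.11, 0.11, −0.07 and −0.02, against −0.02 over all genes. Snhg14, the host of the deleted RNAs, had 199 to 372 CPM in the 6 hypothalamic mutant libraries and 34.3 to 58.1 CPM in the few-neural ones, against 174 to 2040 CPM in the 11 control libraries.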

How the data were processed

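Per the labels' protocols, polyA libraries were sequenced on a NovaSeq and quantified with kallisto 0.44.0 after Trimmomatic 0.38, and gene sums made with tximport. The deposited values are expected counts per gene, whole as deposited and not normalised by the authors; 5 of 41461 lines repeat a gene ID and were dropped. CPM and CPM per kb were computed from them with GENCODE M21 exon lengths. Tests were two-sided quasi-likelihood tests in edgeR 4.0.16 (R 4.3.3; TMM, filterByExpr with a minimum count of 10 and total of 15) in 1 fit of 6 groups over 22 libraries, adjusted by Benjamini-Hochberg over 20763 genes, with calls at an adjusted p under 0.05, and again in 17 libraries. The SE was taken as |log2 fold change|/√F. The edgeR test was tried on simulated data for mutant against control after SD only, and the outcome is not reported here. DESeq2 and the other comparisons were not simulated. Alternatives were DESeq2 1.42.0, RLE factors, no filter, a 2-fold limit, index covariates and leaving out libraries. The named genes are the 5, up to 4 called genes of each list with the largest fold changes, and the 3 most alike genes (mean of at least 1 CPM, prior count 2); Frat2, Maged1 and Nsmce3 were named after their values were seen, and some genes that the rule names are not reported here. The members, gene lists, motifs and library kinds were chosen with earlier results of these data known. Sequences are from RefSeq GRCm38.p6, in which all 5 genes matched.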

Additional observations from a re-analysis of the deposited data

Results flagged for a closer look

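Of 20 groups of 4 libraries examined for a library far from the rest, 1 stood out. The rule flags about 1 group in 20 by chance where libraries are alike and groups independent. The mutant ZT6 group mixes hypothalamic, few-neural and very low depth libraries, and every gene uses the same libraries. Whether chance gave the flag was not tested. Peg12 in mutant ZT6 replicate 3 was at 3.77 CPM, against 0.176 and 0.282 CPM in replicates 1 and 4. Replicate 2, with 0 counts, was entered as 0 CPM, although its depth allows 408 CPM. Replicate 3 is few-neural, with 67 Peg12 counts. Its fibroblast and meningeal markers lay above those of all hypothalamic libraries, and their part in the value was not tested.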

How the results depend on the processing

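At ZT0, 4 genes were called in each of 7 alternative settings and 4 to 5 when a library was left out. RLE factors moved the median log2 fold change of all genes at ZT0 from −0.22 to 0, and that of ZT6 against ZT0 in mutants from 0.17 to −0.10, with no change of direction in the called genes. Between ZT6 and ZT0 in mutants the count was 3, but 0 with only the groups of the comparison (Ndn 2.09, adjusted p = 0.453; Magel2 was removed there by the low-count filter and not tested) and 2 to 4 with a library left out. For A230006K03Rik it was lost with RLE factors (1.17, adjusted p = 0.0738), DESeq2 (1.19, adjusted p = 0.0925) and index numbers 43 to 46 as a covariate (1.06, adjusted p = 0.0940); the cause was not tested. In SD against ZT6 of mutants the count was 0, and 0 to 1 with a library left out (1 without mutant ZT6 replicate 1). In the other 6 comparisons it was 0 in each setting and with each library left out. With only the groups of the comparison, the low-count filter removed Peg12 in some comparisons, so it was not tested there. These were mutant against control at ZT6 and after SD, and SD against ZT6 in each genotype. DESeq2, the comparison's own groups and leave-one-out within the 17 libraries were added after the data were seen. Depth limits Mkrn3 and Peg12. No paired analysis was possible because the labels give no replicate numbers, and replicates were numbered in accession order.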
